A study of Mus musculus with 2 samples.

Results

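Plasma cells were picked out of the islets of NOD mice, an inbred strain in which immune cells enter the islets and autoimmune diabetes follows. The HAMSAB library came from NOD mice fed a high-amylose maize starch carrying acetyl and butyryl groups, and the HAMS library from NOD mice fed that starch without them; in both, the diet began at 5 weeks of age and lasted 5 weeks. Each diet had 1 droplet library of islet cells, with 3' ends counted as unique molecular identifiers (UMIs), and how many mice were pooled in it is not stated in the labels. A plasma cell was a barcode with at least 200 genes, at most 20% mitochondrial UMIs and islet hormones under 10% of its UMIs, that held at least 3 Jchain UMIs and at least 1 UMI of Mzb1, Derl3, Sdc1 or Xbp1, and no UMI of Siglech or Ms4a1. This gave 51 plasma cells of 8813 kept cells, 39 of 4628 in the HAMSAB library and 12 of 4185 in the HAMS library. With 1 library per diet there was no replicate, so no test was made, and the 95% intervals below cover counting error alone.

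Plasma cells are the end stage of the B lineage and are devoted to secreting antibody. XBP1, IRF4 and BLIMP1 (the product of Prdm1) drive an enlarged endoplasmic reticulum (ER), in which heavy and light chains are folded, joined by disulfide bonds and glycosylated, while PAX5 and the B cell programme are shut off. The heavy chain constant gene sets the antibody class: a cell starts with Ighm and can switch, by deleting the DNA in between, to a gene further along the locus. The J chain, a small protein encoded by Jchain, links IgM and IgA subunits into polymers, which epithelia can carry into mucosal secretions. Plasmablasts are the dividing, younger form and keep more MHC class II than resting plasma cells.

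The constant genes that tell the classes apart lie on the minus strand of chromosome 12 (GRCm38), from Ighm at chr12:113418558-113422730 through Ighd, Ighg3, Ighg1, Ighg2b, Ighg2c and Ighe to Igha at chr12:113254830-113260236, which starts 162494 bases downstream of Ighm. Igkc, the kappa light chain constant gene, lies at chr6:70726435-70726966 and Jchain at chr5:88519809-88527891. The secreted tailpiece, the end of the heavy chain to which the J chain binds, is shown for the 2 classes that have it, as the last coding bases of the secreted transcript with the stop codon; capitals mark the codon of the cysteine before the last residue.
Ighm secreted tailpiece, chr12:113420867-113420923, minus strand: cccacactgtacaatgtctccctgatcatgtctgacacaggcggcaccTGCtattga
Igha secreted tailpiece, chr12:113258768-113258824, minus strand: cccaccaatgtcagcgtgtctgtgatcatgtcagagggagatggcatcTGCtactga
The 2 tailpieces share 38 of 57 bases and 10 of 18 residues when set side by side without gaps. A search of 16 annotated transcripts of the 8 heavy constant genes found this ending in Ighm and Igha alone. The sequences are those of the reference genome, which is not the NOD strain.

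The label held for most of the 51 cells. Jchain was high in most of them, with 3 to 149 UMIs and a median of 43 per cell in the HAMSAB library, and 3 to 97 UMIs with a median of 49.5 in the HAMS library. The cells were chosen by their Jchain, Mzb1, Derl3, Sdc1, Xbp1, Siglech and Ms4a1 UMIs, so the values of these genes describe the cells only. Igkc, which the rule did not use, had 3 to 196 UMIs with a median of 62 per HAMSAB cell and 28 to 203 UMIs with a median of 82.5 per HAMS cell, and was seen in each of the 51. Among barcodes over the hormone limit, which are endocrine and should lack these genes, Jchain was seen in 9 of 672 HAMSAB barcodes (1.34%) and 7 of 885 HAMS barcodes (0.791%), and Igkc in 2.83% of the HAMSAB and 1.47% of the HAMS ones. Their median depth was 724 UMIs in HAMSAB and 629 in HAMS, against 1072 in HAMSAB and 776.5 in HAMS plasma cells. Of the other fixed markers, Mzb1, which helps fold immunoglobulin in the ER, was seen in 34 of 39 HAMSAB and 10 of 12 HAMS cells. Sdc1, the surface proteoglycan CD138, was seen in 6 HAMSAB and 3 HAMS cells, and Derl3, of ER-associated degradation, in 5 HAMSAB and 0 HAMS cells. Tnfrsf17, the survival receptor BCMA, was at 0 in the plasma cells of both libraries. It was also at 0 in their B cells and endocrine barcodes, so its 0 does not set the plasma cells apart.

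Some members went against the label. In 4 HAMSAB cells and 0 HAMS cells, immunoglobulin genes and Jchain together took under 5% of UMIs. The 2 lowest held 3070 and 4126 UMIs, with 0.391% and 0.436% in these genes, 3 and 5 Jchain UMIs, and 51 and 64 UMIs of the cell cycle list. Another, with 3661 UMIs, held 45 Jchain and 46 Igkc UMIs, or 4.34% of its total with the heavy chain, and the last, with 661 UMIs, held 2.42%. These 4 cells gave 23.3% of all HAMSAB plasma cell UMIs. A minimum of 10 Jchain UMIs leaves out 3 of them and 2 further HAMSAB cells and 1 HAMS cell, and values under that minimum are given below as a check. Near the edge of the rule, 4 HAMSAB cells and 1 HAMS cell had 3 to 5 Jchain UMIs, and 2 HAMSAB barcodes and 0 HAMS barcodes with 2 Jchain UMIs met all other conditions. Another 12 HAMSAB and 2 HAMS barcodes had enough Jchain but no UMI of the 4 partner genes, and 11 HAMSAB and 5 HAMS barcodes were left out for an Ms4a1 UMI.

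Markers of other cells were low. The 10 T cell markers summed to 1 UMI over the HAMSAB plasma cells and 0 over the HAMS ones, with Cd3e, Cd3d, Cd3g and Trac at 0. The 10 macrophage markers summed to 9 UMIs in HAMSAB and 0 in HAMS, and the 9 conventional dendritic markers to 12 in HAMSAB and 0 in HAMS. Plasmacytoid dendritic cells (pDC), which in general can also carry Jchain RNA, had 0 Jchain UMIs here in 26 HAMSAB and 14 HAMS cells. The pDC list gave 118 UMIs in HAMSAB and 18 in HAMS plasma cells, most of them from Tcf4 (101 UMIs in HAMSAB), a factor that B lineage cells also use. Endocrine markers summed to 222 UMIs (4492 CPM, counts per 1000000 UMIs) in HAMSAB and 8 UMIs (852 CPM) in HAMS plasma cells. No barcode shared by the 2 libraries was a plasma cell, though 6 barcodes were shared in all.

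Nearly every plasma cell expressed a single heavy chain class. A cell was given the class of the gene with over 50% of its heavy constant UMIs, if it had at least 5. In 39 of the 48 cells with a class, 100% of heavy constant UMIs came from 1 gene, in 46 more than 95% did, and the lowest share was 81.2%. The exception, a HAMS cell with 26 Ighg1 and 6 Ighm UMIs, held both genes. Ighg2b and Ighg2c are similar in sequence, so the gene given to a UMI of another IgG class is uncertain.

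**Figure D1:**
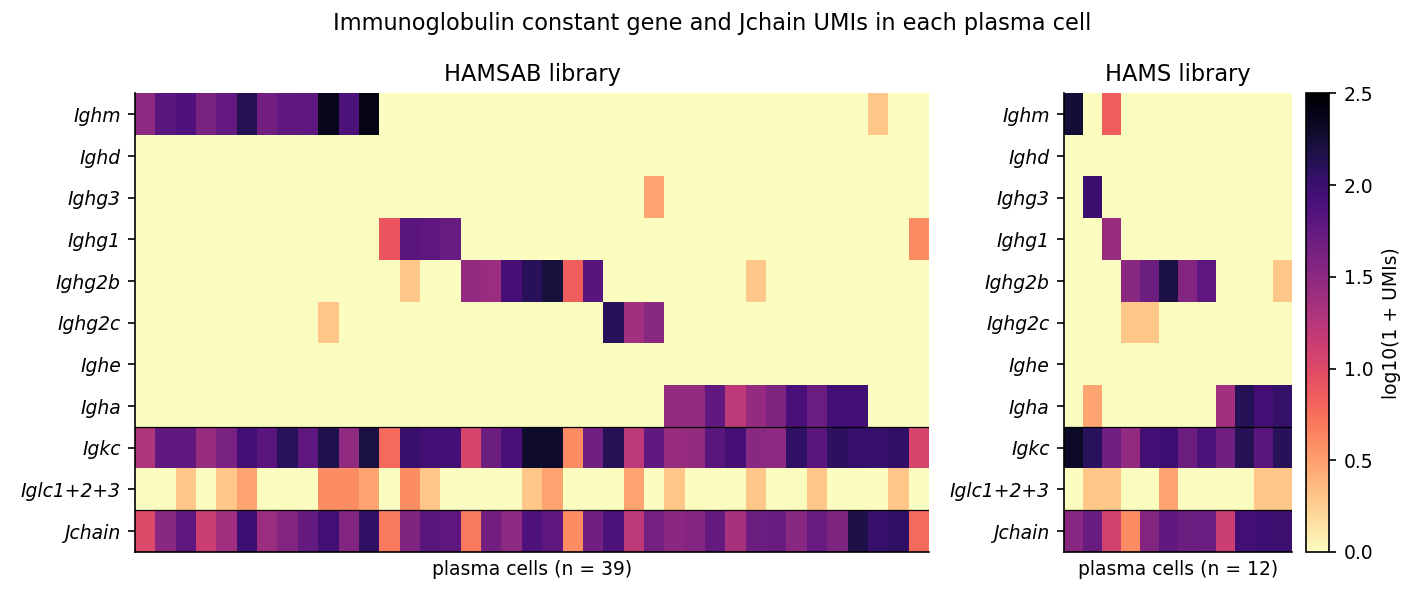
Heat map of UMIs per plasma cell, on a log10(1 + UMIs) colour scale, for the 8 heavy constant genes, Igkc, the summed lambda genes and Jchain. Columns are the 39 HAMSAB cells (left) and 12 HAMS cells (right), sorted by class; dark blocks fall in 1 heavy row per cell, and Igkc is dark in nearly all columns while lambda stays at a few UMIs.

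IgM, IgG and IgA cells were all present. In the HAMSAB library 12 of 39 cells were IgM (30.8%, interval 17.0 to 47.6), 14 were IgG (35.9%, 21.2 to 52.8) and 10 were IgA (25.6%, 13.0 to 42.1). In the HAMS library 1 of 12 was IgM (8.33%, 0.211 to 38.5), 7 were IgG (58.3%, 27.7 to 84.8) and 4 were IgA (33.3%, 9.92 to 65.1). Switched classes together made up 61.5% (44.6 to 76.6) of HAMSAB and 91.7% (61.5 to 99.8) of HAMS plasma cells, and these intervals overlap, as do those of each class. Ighg2b led among the IgG cells, with 7 HAMSAB and 5 HAMS cells. Ighg1 led in 4 HAMSAB cells and 1 HAMS cell, Ighg2c in 3 HAMSAB and 0 HAMS cells, and Ighg3 in 0 HAMSAB cells and 1 HAMS cell. No cell was led by Ighd or Ighe: 0 of 39 HAMSAB cells allows a share of up to 7.69% by the limit of 3 counts (Clopper-Pearson upper bound 9.03%), and 0 of 12 HAMS cells up to 25% (26.5%).

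**Figure D2:**
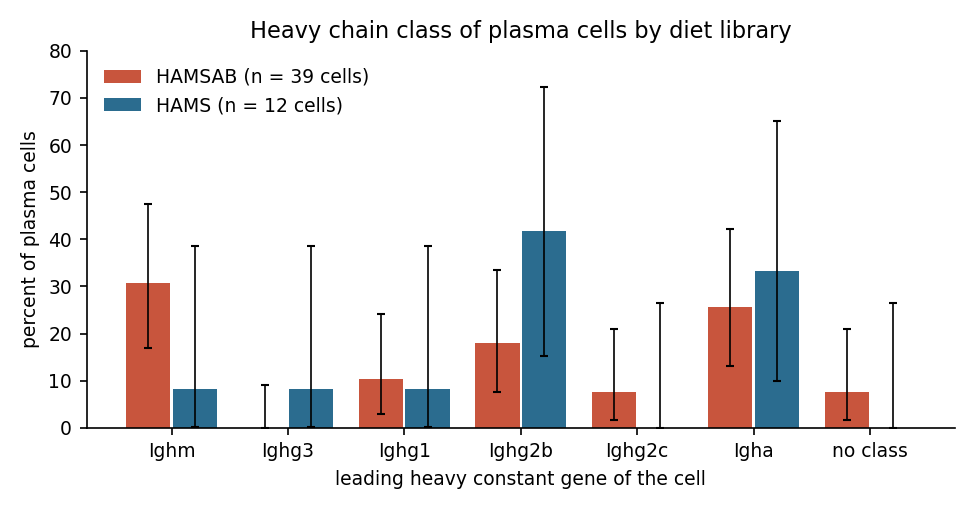
Percent of plasma cells whose leading heavy constant gene is the one on the x axis, HAMSAB left (39 cells) and HAMS right (12 cells) of each pair; lines are exact 95% Clopper-Pearson intervals. IgM is 30.8% in HAMSAB and 8.33% in HAMS and Ighg2b 17.9% in HAMSAB and 41.7% in HAMS, with intervals that overlap in every class.

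The light chain was kappa almost throughout. Igkc held most light constant UMIs in 38 of 39 HAMSAB cells, the other having fewer than 5 light chain UMIs, and in 12 of 12 HAMS cells. Lambda led in 0 cells of either library. In 3 HAMSAB cells no class could be given. Of these, 2 had 1433 and 1658 UMIs, 103 and 109 Igkc UMIs and 102 and 112 Jchain UMIs, but 1 and 0 heavy constant UMIs. They carried light chain and J chain RNA within the range of the other cells, with almost no counted heavy chain RNA. The other is the deepest cell, with 3 Ighg1 UMIs.

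Free RNA of these genes was low in endocrine barcodes. The highest Igha value in an endocrine barcode was 1 UMI in each library, where Igha cells had up to 90 UMIs in HAMSAB and 133 in HAMS. Endocrine barcodes with many UMIs of other classes did occur, up to 161 Ighg1 UMIs in HAMSAB and 83 Ighm UMIs in HAMS. The hormone limit keeps these out, but 2 HAMSAB plasma cells under the limit also held many hormone UMIs. One had 76 Ighm and 72 hormone UMIs, the other 90 Igha and 94 hormone UMIs.

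Variable segments, which mark the antibody of a B cell clone, were seen in 30 of 39 HAMSAB and 11 of 12 HAMS plasma cells, but thinly, with 100 UMIs in HAMSAB and 41 in HAMS. The leading segments were 15 different Ighv and 16 different Igkv genes in HAMSAB and 7 and 7 in HAMS. A single pair of cells, both HAMSAB IgG2b cells, shared both leading segments: 1 had 4 Ighv14-2 and 9 Igkv12-44 UMIs, the other 1 and 6. Igkv12-44 led in 6 HAMSAB and 2 HAMS cells in all, among them IgM, IgG and IgA cells. Similar V genes share sequence, so the segment named by a few UMIs is uncertain.

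Set against B cells of the same library, plasma cells carried the antibody-secreting machinery. B cells were barcodes under the same filters with at least 1 Ms4a1 UMI, 0 Siglech UMIs and at least 1 UMI of another B cell marker such as Cd79a or Cd79b, 227 in HAMSAB and 77 in HAMS. The choice of cells shapes these values, so they describe the cells and are no test. Of genes with at least 20 UMIs over both cell types, 288 of 2725 were at least 2-fold higher in HAMSAB plasma cells (10.6%) and 662 at least 2-fold lower (24.3%). In HAMS, with fewer UMIs, 83 of 958 were higher (8.66%) and 236 lower (24.6%). Of 956 genes measured in both, 44 were higher and 66 lower in both libraries, and 5 were on opposite sides.

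Most measured folding enzymes and chaperones of the ER were higher in plasma cells. Of the 24 listed genes 20 were measured in HAMSAB, and 17 were at least 2-fold higher in plasma cells. In HAMS 7 were measured, and 5 were at least 2-fold higher. These counts include Mzb1, which helped choose the cells and stood at 4.58 in HAMSAB and 4.89 in HAMS on the log2 scale. The median log2 ratio of the measured genes was 2.26 in HAMSAB and 2.57 in HAMS, where the medians of all measured genes were -0.32 in HAMSAB and -0.56 in HAMS. Hsp90b1, the ER chaperone GRP94, had 8539 CPM in plasma cells against 632 CPM in B cells of the HAMSAB library, a log2 ratio of 3.76 (3.51 to 4.01). In the HAMS library it had 7777 CPM against 490 CPM, a log2 ratio of 3.99 (3.47 to 4.51). Hspa5, the chaperone BiP that holds unpaired heavy chains, was 2.25 (1.95 to 2.55) higher on the log2 scale in HAMSAB and 2.57 (1.93 to 3.18) in HAMS. Pdia4, a disulfide isomerase, stood at 971 CPM in HAMSAB plasma cells against 46.1 CPM in B cells, 4.40 (3.51 to 5.37) higher on the log2 scale. Canx, the lectin chaperone calnexin, differed least among the abundant members, by 0.49 (0.10 to 0.87) in HAMSAB and 0.16 (-1.01 to 1.14) in HAMS.

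The other steps of secretion were higher too. Signal peptide removal and translocation into the ER had 12 of 16 measured genes at least 2-fold higher in HAMSAB and 6 of 6 in HAMS, with Sec11c, a signal peptidase subunit, at 3.62 (2.81 to 4.47) in HAMSAB and 3.92 (2.51 to 5.37) in HAMS. ER-associated degradation, whose list holds Derl3, a gene that helped choose the cells, had 9 of 11 in HAMSAB and 1 of 2 in HAMS. Edem1, which marks misfolded glycoproteins, was at 2.97 (2.31 to 3.63) in HAMSAB and 3.48 (2.47 to 4.47) in HAMS. N-glycosylation had 6 of 8 in HAMSAB; in HAMS only Stt3b was measured, at -1.41, while the sum of all 15 genes had a log2 ratio of 1.62 (0.97 to 2.22). ER to Golgi traffic had 9 of 16 in HAMSAB and 1 of 3 in HAMS, with the retrieval receptor Kdelr2 at 1.73 (1.30 to 2.15) in HAMSAB and 1.10 (0.13 to 1.96) in HAMS.

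**Figure D3:**
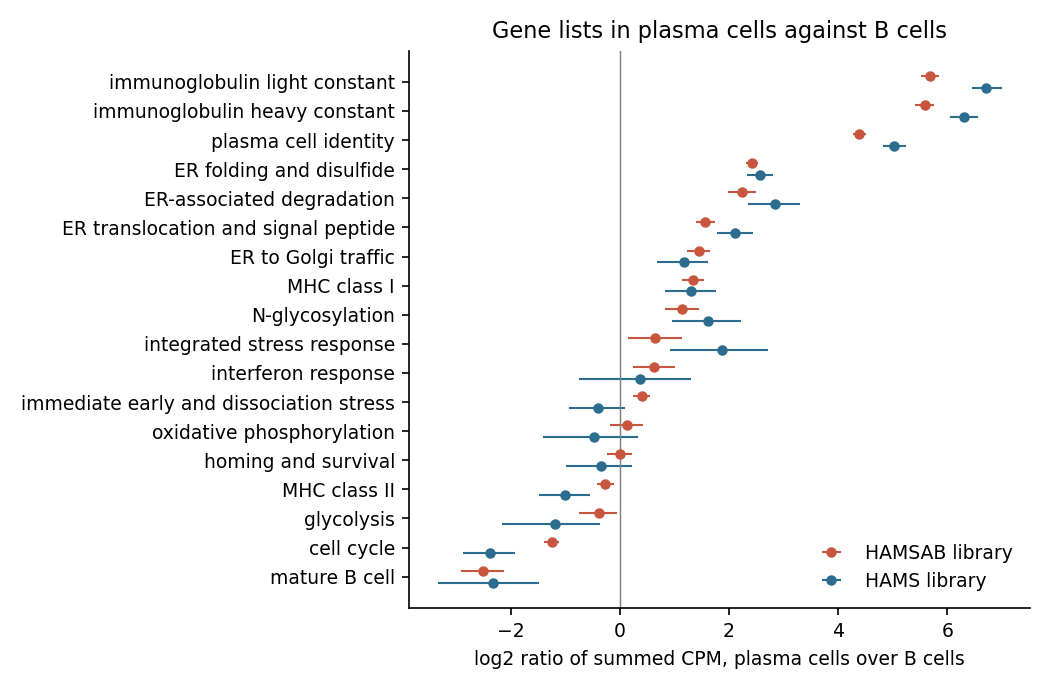
Log2 ratio of summed CPM, plasma cells over B cells, for 18 gene lists, with the HAMSAB library above the HAMS library in each row; lines are exact 95% counting intervals. Immunoglobulin, identity and ER lists lie right of 0 in both libraries, and cell cycle and mature B cell lists left of it.

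Some of these ER genes share a promoter element that the transcription factor ATF6 reads when unfolded protein builds up. The ER stress response element, CCAAT and CCACG with 9 bases of any kind between them, searched on both strands, was found in 39 of 32851 RefSeq promoter windows (0.119%), or in 37 of 27025 genes (0.137%), within windows of 250 bases before to 50 after the start. Among the ER folding list 7 of 19 genes with a window held it (36.8%), and among ER-associated degradation 2 of 14 (14.3%). It was in 0 of 17 genes of ER translocation, 0 of 12 of N-glycosylation and 0 of 21 of ER to Golgi traffic. The 220 bases before the start are shown for 3 genes of the ER folding list and for Derl3, a marker of the cells. They are from RefSeq, build GRCm38.p6, with the matches in capitals.
Hsp90b1, chr10:86705445-86705664, minus strand: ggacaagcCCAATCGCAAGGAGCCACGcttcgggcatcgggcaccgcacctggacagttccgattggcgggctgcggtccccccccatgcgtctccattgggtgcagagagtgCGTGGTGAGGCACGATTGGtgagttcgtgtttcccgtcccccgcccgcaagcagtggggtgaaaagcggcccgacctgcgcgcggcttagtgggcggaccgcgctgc
Hspa5, chr2:34771870-34772089, plus strand: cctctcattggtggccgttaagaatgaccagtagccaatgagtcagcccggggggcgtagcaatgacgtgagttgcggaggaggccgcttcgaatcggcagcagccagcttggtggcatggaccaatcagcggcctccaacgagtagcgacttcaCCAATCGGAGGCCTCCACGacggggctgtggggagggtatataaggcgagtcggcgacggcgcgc
Calr, chr8:84846932-84847151, minus strand: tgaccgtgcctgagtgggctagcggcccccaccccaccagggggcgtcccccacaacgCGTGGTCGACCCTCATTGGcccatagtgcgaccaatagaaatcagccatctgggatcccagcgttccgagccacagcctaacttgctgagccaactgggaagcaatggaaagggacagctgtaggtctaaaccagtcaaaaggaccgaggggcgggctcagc
Derl3, chr10:75893178-75893397, plus strand: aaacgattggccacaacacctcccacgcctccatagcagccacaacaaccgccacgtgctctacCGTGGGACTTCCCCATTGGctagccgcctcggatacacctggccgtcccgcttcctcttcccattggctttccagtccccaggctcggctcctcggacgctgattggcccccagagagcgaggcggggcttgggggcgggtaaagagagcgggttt
Hsp90b1 holds 2 matches, beginning 212 and 107 bases before the start in opposite orientations, and Hspa5 holds 1 beginning 65 bases before it. Calr, the chaperone calreticulin, and Derl3 hold 1 each on the opposite strand, beginning 162 and 156 bases before the start. A match is a description of these letters and was not tested for binding.

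Regulators of the plasma cell state were present at low counts. Prdm1 had 23 of 49418 UMIs in HAMSAB plasma cells against 6 of 303808 in HAMSAB B cells, a log2 ratio of 4.56 (3.22 to 6.14). In HAMS plasma cells it had 3 UMIs. Irf4 had 16 UMIs in HAMSAB, 2.10 (1.08 to 3.08) above B cells, and 1 UMI in HAMS. Xbp1, which helped choose the cells, had 42 UMIs in HAMSAB and 7 in HAMS. Pou2af1, the coactivator OCA-B that B and plasma cells both use, differed least from B cells, by 0.33 (-0.08 to 0.72) in HAMSAB and 0.62 (-0.30 to 1.42) in HAMS. Trp53inp1 had 58 UMIs in HAMSAB plasma cells against 9 in B cells, a log2 ratio of 5.31 (4.29 to 6.51). Bhlhe41, a repressor also known from B-1 cells, was at 2.14 (1.77 to 2.50) in HAMSAB and 2.26 (1.48 to 2.99) in HAMS.

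B cell identity was low. Of the 16 mature B cell genes measured in HAMSAB, 12 were at least 2-fold lower in plasma cells, and in HAMS 2 of 3 were. Pax5, Bach2 and Spib, transcription factors of the B cell state, were at 0 in the plasma cells of both libraries, against 132, 59 and 33 UMIs in HAMSAB B cells. Ebf1, another such factor, was lower by a log2 ratio of -2.71 (-3.85 to -1.77) in HAMSAB and -3.46 (-8.77 to -0.96) in HAMS. Cd79a, of the B cell receptor, was partly kept, at 607 CPM in HAMSAB plasma cells against 1228 CPM in B cells and 746 CPM against 1256 CPM in HAMS. Cxcr4, the receptor that guides plasma cells to bone marrow, had 1214 CPM in plasma cells against 2409 CPM in B cells in HAMSAB and 533 CPM against 2513 CPM in HAMS. Itga4, an integrin of the homing list, was at 2.69 (1.71 to 3.68) in HAMSAB, with 3 UMIs in HAMS plasma cells.

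MHC class I genes stood above B cells in sum, while the class II sum in HAMSAB lay close to the median of all measured genes. MHC class I genes summed to a log2 ratio of 1.34 (1.14 to 1.54) over B cells in HAMSAB and 1.31 (0.83 to 1.76) in HAMS, led by B2m at 2.09 (1.78 to 2.39) in HAMSAB and 2.48 (1.81 to 3.11) in HAMS. MHC class II genes summed to -0.27 (-0.43 to -0.11) in HAMSAB and -1.0 (-1.49 to -0.55) in HAMS, beside medians over all genes of -0.32 in HAMSAB and -0.56 in HAMS. Of the class II genes, 2 of 9 measured were at least 2-fold lower in HAMSAB and 3 of 5 in HAMS. Over all measured genes the shares at least 2-fold lower were 24.3% in HAMSAB and 24.6% in HAMS. Cd74, the invariant chain, was near B cells in HAMSAB, at 0.02 (-0.17 to 0.22), and at -0.36 (-0.88 to 0.12) in HAMS. Ciita, the class II activator, was at 0 in plasma cells of both libraries, against 25 UMIs in HAMSAB B cells.

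Plasma cells were a larger part of the HAMSAB library than of the HAMS library, while the interval of the ratio of their shares among plasma and B cells included 1. They made up 0.843% (0.600 to 1.15) of HAMSAB and 0.287% (0.148 to 0.500) of HAMS kept cells, a ratio of 2.94-fold (1.51 to 6.17). Of cells under the hormone limit the shares were 0.986% in HAMSAB and 0.364% in HAMS, a ratio of 2.71-fold (1.39 to 5.69). Of plasma and B cells together, plasma cells were 14.7% (10.6 to 19.5) in HAMSAB and 13.5% (7.17 to 22.4) in HAMS, a ratio of 1.09-fold (0.558 to 2.28). Depth moved with the first ratio: 20 of 39 HAMSAB plasma cells and 0 of 12 HAMS plasma cells held more than 1000 UMIs, and among cells of at most 1000 UMIs the ratio of shares of kept cells was 1.43-fold (0.660 to 3.23). Over all kept cells the median depth was 705 UMIs in HAMSAB and 704 in HAMS, and the part of depth in the result was not tested.

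Immunoglobulin took a smaller part of the RNA of HAMSAB plasma cells. Immunoglobulin genes and Jchain held 14.8% of their UMIs, against 28.8% in HAMS plasma cells. Per cell the share ran from 0.391% to 40.6% with a median of 15.6% in HAMSAB, and from 9.57% to 51.8% with a median of 27.0% in HAMS, so the libraries overlapped over most of the range. Among cells of at most 1000 UMIs the shares were 21.1% in HAMSAB and 28.8% in HAMS. Igkc had 57024 CPM in HAMSAB and 114520 CPM in HAMS, a log2 ratio of -1.01 (-1.11 to -0.90), and -0.81 (-0.91 to -0.70) with at least 10 Jchain UMIs per cell. Jchain, which chose the cells, had 37861 CPM in HAMSAB and 62320 CPM in HAMS. Igha and Ighg2b had log2 ratios of -1.88 (-2.08 to -1.68) and -1.81 (-2.02 to -1.61), Ighg2c 4.10 (2.22 to 7.15) and Ighg3 -8.03 (-11.1 to -6.13). A single HAMSAB cell held 125 of the 180 HAMSAB UMIs of Ighg2c, and a single HAMS cell all 99 HAMS UMIs of Ighg3. Without the condition on Mzb1, Derl3, Sdc1 and Xbp1, Ighg2c was at 0.08 (-0.40 to 0.60).

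**Figure D4:**
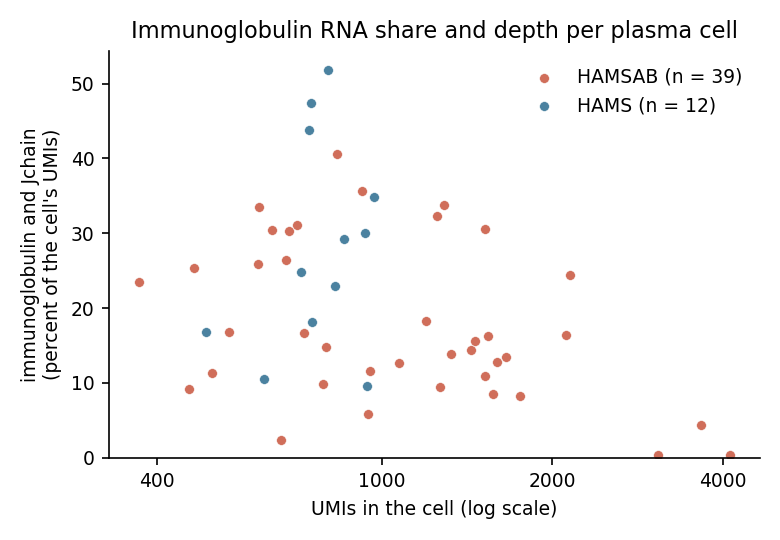
Percent of each plasma cell's UMIs in immunoglobulin genes and Jchain (y axis) against its UMIs (x axis, log scale), 39 HAMSAB and 12 HAMS cells. All HAMS cells hold under 1000 UMIs, and the 3 cells over 3000 UMIs, all HAMSAB, have under 5%.

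Between the diets 411 genes reached 20 UMIs in sum, of which 100 were at least 2-fold higher in HAMSAB plasma cells (24.3%) and 23 at least 2-fold lower (5.6%). The median log2 ratio was 0.28. Immunoglobulin takes up part of the total: with it left out, every log2 ratio moves by -0.26, and the median becomes 0.02. On that scale 75 of the 411 genes passed 2-fold upward in HAMSAB and 49 passed it downward. Counting intervals on the full total lay above 0 for 40 genes (9.73%) and below 0 for 23 (5.6%).

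The higher genes named here are those with the highest interval bound nearest 0. Hspa8 and Hsp90aa1 are both in the immediate early and dissociation stress list, and no list fixed for this work holds all of the genes. Eif4a1, an RNA helicase of translation initiation, had 2408 CPM in HAMSAB and 426 CPM in HAMS, a log2 ratio of 2.50 (1.10 to 4.40). Eif5a, another translation factor, had 50 UMIs in HAMSAB and 1 in HAMS, a log2 ratio of 3.25 (0.70 to 8.58). Hspa8, a cytosolic chaperone, was at 3.33 (0.79 to 8.66) and Hsp90aa1, its partner, at 2.03 (0.62 to 3.94). Kdm6b, a histone H3K27 demethylase, had 1902 CPM in HAMSAB and 426 CPM in HAMS, a log2 ratio of 2.16 (0.75 to 4.06). Actb, cytoplasmic actin, was at 0.79 (0.66 to 0.92), Tmsb4x, which binds actin monomers, at 1.71 (0.43 to 3.37), and Ptma, a nuclear acidic protein, at 1.35 (0.76 to 2.0). Ins1, the insulin gene, was at 2.51 (0.59 to 5.59), beside islet hormones at 0.358% of UMIs in HAMSAB and 0.0852% in HAMS plasma cells. Most of these hormone UMIs sat in 2 HAMSAB cells, with 72 and 94, and Ins1 was at -0.80 (-1.58 to 0.047) without the condition on Mzb1, Derl3, Sdc1 and Xbp1.

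The lower genes named here, outside immunoglobulin and Jchain, rested on few UMIs. Fndc3a had 16 UMIs in HAMSAB and 13 in HAMS, a log2 ratio of -2.10 (-3.25 to -0.92). Ppib, a prolyl isomerase of the ER, had 11 UMIs in HAMSAB and 9 in HAMS, a log2 ratio of -2.11 (-3.52 to -0.66). Dusp4, a MAP kinase phosphatase, was at -1.73 (-2.85 to -0.56), Ddx5, an RNA helicase, at -1.66 (-2.76 to -0.49) and Pbrm1, a chromatin remodeling subunit, at -1.81 (-3.22 to -0.32). Each had 8 to 13 HAMS UMIs.

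The interval of the ER folding list's ratio between the diets included 0. Its sum was 24526 CPM in HAMSAB and 23543 CPM in HAMS, a log2 ratio of 0.06 (-0.15 to 0.27), which becomes -0.20 (-0.41 to 0.01) with immunoglobulin left out of the total. Of its 15 measured genes 8 were higher and 7 lower in HAMSAB, with a median of 0.13. Hsp90b1 stood at 0.13 (-0.23 to 0.51) and Hspa5 at -0.11 (-0.65 to 0.47). Genes of entry into the ER were lower in HAMSAB, 8054 CPM against 11505 CPM, a log2 ratio of -0.51 (-0.82 to -0.19); all 7 measured genes were lower, 0 of them 2-fold. Tram1, which helps chains through the translocation pore, was at -0.96 (-1.79 to -0.06) and Ssr1, a translocon-associated subunit, at -0.55 (-1.20 to 0.15). Among cells of at most 1000 UMIs the sum was at -0.38 (-0.77 to 0.02).

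MHC class II genes were higher in HAMSAB plasma cells, 7507 CPM against 4368 CPM, a log2 ratio of 0.78 (0.31 to 1.28). All 4 measured genes were higher, 3 of them at least 2-fold, beside 24.3% of all measured genes. Among these 3, H2-Eb1 is a bound set by its 0 HAMS UMIs. The median of the 4 was 1.44, and that of all genes 0.28. Cd74 had 0 to 30 UMIs per HAMSAB cell with a median of 4, and 1 to 9 per HAMS cell with a median of 2, and stood at 0.35 (-0.15 to 0.89). H2-Ab1 had 41 UMIs in HAMSAB and 2 in HAMS, H2-Aa 38 in HAMSAB and 2 in HAMS, and H2-Eb1 32 in HAMSAB and 0 in HAMS. The sum was at 0.89 (0.35 to 1.45) among cells of at most 1000 UMIs and at 0.76 (0.27 to 1.28) with at least 10 Jchain UMIs. It was at 0.52 (0.054 to 1.02) with immunoglobulin left out of the total, and at -0.22 (-1.22 to 1.01) with at least 500 genes per barcode, which leaves 1 HAMS cell. Genes of the immediate early and dissociation stress list were higher by 1.06 (0.57 to 1.59) in sum, 7993 CPM in HAMSAB against 3835 CPM in HAMS. The list joins early genes, which many stimuli induce within minutes, with cytosolic chaperones such as Hspa8 and Hsp90aa1. Of its 8 measured genes 3 were at least 2-fold higher, beside 24.3% of all genes. The median of these 8 was 0.34, near the 0.28 of all genes; Hspa8, Hsp90aa1 and Klf6 were the 3, while Jund stood at -0.02 (-1.01 to 1.12) and Btg2 at 0.15 (-1.12 to 1.69). Without the condition on Mzb1, Derl3, Sdc1 and Xbp1 the sum was at 0.11 (-0.24 to 0.47).

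Cell cycle RNA was higher in HAMSAB plasma cells and sat in a few cells. The list summed to 8580 CPM in HAMSAB and 4155 CPM in HAMS, a log2 ratio of 1.05 (0.57 to 1.56). All 4 measured genes were higher, 3 at least 2-fold, beside 24.3% of all measured genes. Mki67, a marker of cycling cells, had 34 UMIs in 10 of 39 HAMSAB cells and 2 UMIs in 1 of 12 HAMS cells. Top2a, which untangles DNA in division, had 25 UMIs in HAMSAB and 2 in HAMS. Tubb5, a tubulin, gave 232 of the 424 list UMIs in HAMSAB and 23 of 39 in HAMS, a log2 ratio of 0.94 (0.32 to 1.62). The sum was at 0.80 (0.25 to 1.38) among cells of at most 1000 UMIs and at 1.13 (0.59 to 1.73) with at least 10 Jchain UMIs. That minimum leaves out 2 of the HAMSAB cells richest in this RNA. It also leaves out 1 HAMS cell that held 9 of the 39 HAMS list UMIs, which lowers the HAMS side of the ratio. The sum was at 0.79 (0.31 to 1.30) with immunoglobulin left out of the total and at 0.32 (0.078 to 0.57) without the conditions on Siglech and Ms4a1. With at least 500 genes per barcode it was at -1.55 (-2.14 to -0.91). In B cells the list was higher still, at 20421 CPM in HAMSAB and 21469 CPM in HAMS.

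Within the HAMSAB library the cell cycle list was highest in the IgA cells. The list summed to 18024 CPM in the 10 IgA cells, 5453 CPM in the 14 IgG cells and 4600 CPM in the 12 IgM cells. Tubb5 gave 110 of the 201 list UMIs of the IgA cells. Top2a was at 1524 CPM in IgA, 225 CPM in IgG and 226 CPM in IgM cells. Mki67 was not highest in IgA, at 986 CPM against 225 CPM in IgG and 1056 CPM in IgM cells, with 3 positive cells in each class. More than 10 of every 1000 UMIs came from the list in 6 of 10 IgA, 1 of 14 IgG and 2 of 12 IgM cells. Per cell the IgA values ran from 0 UMIs in 2 cells to 53, 44 and 34 UMIs in the 3 highest. In the HAMS library the 4 IgA cells held 1 UMI of the list in all (327 CPM) and the 7 IgG cells 38 UMIs (6877 CPM), 25 of them in 1 cell. The classes thus stood in another order in the 2 libraries. The IgA cells of HAMSAB were also lowest in MHC class II, at 1883 CPM against 10568 CPM in IgG and 6184 CPM in IgM cells, and Cd74 had at most 4 UMIs in any of them. In HAMS, MHC class II was at 2289 CPM in IgA, 4524 CPM in IgG and 11208 CPM in the single IgM cell.

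**Figure D5:**
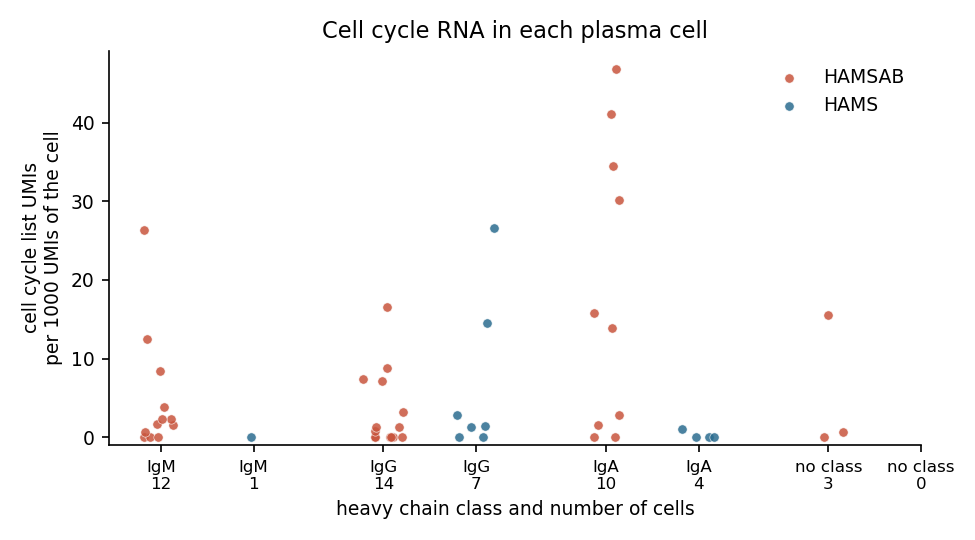
Cell cycle list UMIs per 1000 UMIs of the cell (y axis) for each plasma cell, by heavy chain class, HAMSAB left and HAMS right of each pair with the number of cells under the class. The highest HAMSAB IgA cell reaches 46.8 and the highest HAMS cell, an IgG cell, 26.6.

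Other readouts of the classes differed as well. Jchain, which chose the cells and so had to be found in each class, had 45732 CPM in IgA, 31480 CPM in IgG and 43891 CPM in IgM cells of HAMSAB. In HAMS it had 96141 CPM in IgA cells, 46688 CPM in IgG cells and 41096 CPM in the single IgM cell. ER folding genes summed to 34613 CPM in IgA, 23160 CPM in IgG and 26169 CPM in IgM cells of HAMSAB. In HAMS they summed to 21910 CPM in IgA cells and 26963 CPM in IgG cells. The single HAMS IgM cell had 6227 CPM (2022 to 14531), from 5 UMIs. Slpi, a secreted protease inhibitor, had 55 UMIs in the 14 IgG cells of HAMSAB, 1 in the 10 IgA cells and 19 in the 12 IgM cells. In HAMS it had 9 in the IgG cells, 0 in the IgA cells and 1 in the IgM cell. Receptors tied to mucosal homing were scarce: Ccr9 had 0 UMIs in HAMSAB and 1 in HAMS, Ccr10 1 in HAMSAB and 0 in HAMS, and Itgb7 1 in HAMSAB and 0 in HAMS.

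The HAMSAB library held 5022 barcodes and 4254040 UMIs and the HAMS library 4352 barcodes and 3599756 UMIs. The plasma cells held 49418 UMIs in HAMSAB and 9387 in HAMS, so a gene at 1 HAMS UMI stands at 107 CPM, and genes below 20 UMIs in all were not compared. Mitochondrial UMIs had a median of 0.470% in HAMSAB and 1.0% in HAMS plasma cells.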

How the data were processed

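The authors deposited 1 matrix per library of raw UMI counts per gene and barcode, written by Cell Ranger 5.0.0 per the file headers, with 32285 genes and no normalization; the submitters' processing notes name mm10, GRCm38 and Seurat, and no source used here gives the cell calling settings. The 8 deposited tables of the authors' own comparisons were not used. UMIs were summed over the cells of a class per library and divided by their total (CPM). CPM have exact Poisson intervals, shares exact Clopper-Pearson intervals and log2 ratios exact conditional binomial intervals, all for counting error only (Python 3.11.15, scipy 1.17.1). A library at 0 was set at 3 counts to give a bound. Doublets were kept, and leaving out barcodes with at least 2 UMIs of T cell or macrophage genes was an alternative. One gene of the rule for B cells is not reported here. The calculations were tested on simulated counts. Named genes are the members of the identity and constant gene lists, up to 4 abundant members and 2 by counting bound in each direction of other lists, the 20 highest by CPM and the 10 highest and 10 lowest between diets by the bound nearest 0; Pdia4, Edem1, Itga4, Slpi, Bhlhe41 and other genes outside it were chosen after their values were seen. The members and lists were chosen with earlier results of these data known. Promoters are RefSeq's, and constant gene positions and tailpieces are from the GENCODE annotation of GRCm38.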

Additional observations from a re-analysis of the deposited data

How the results depend on the processing

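No paired analysis was possible because each diet has 1 library, so no library could be left out either. Shares, class shares, gene counts, list medians, list sums and named genes were recomputed under each alternative; for shares, classes, gene counts, the median of all genes and 4 list medians, 155 recomputed values stayed within the spread of the main value, 25 moved and 3 changed sign, and 12 changed sign among list sums and single genes. At least 500 genes per barcode leaves 20 HAMSAB cells and 1 HAMS cell, and these changes of sign, other than that of Ins1, come from that setting: the fold of the share of kept cells became 17.7 and of plasma plus B cells 7.06, HAMS was 0% IgM, 100% IgG and 0% IgA, 10 genes were higher and 53 lower, and the medians were -0.70 (all genes), -1.34 (identity), -0.28 (MHC class II) and -1.56 (cell cycle). Its sums were 0.28 for heavy chain, 0.0032 for light chain, 0.90 for identity, -0.22 for MHC class II and -1.55 for cell cycle genes, with Actb at -0.086, Hsp90aa1 at -0.19, Igha at 1.58, Ighg2b at 1.63, Igkc at 0.024 and Jchain at 1.46; the sums of the mature B cell and interferon lists gave no value there. Cells of at most 1000 UMIs, chosen after seeing the data, gave a share fold of 1.43, 9 higher and 4 lower genes; fewer genes reach 20 UMIs there. Thinning to 500 UMIs gave 22 higher and 6 lower genes with a median of 0.13, a gene minimum of 50 UMIs 22, 5 and 0.14, and one of 10 UMIs 183 higher and 90 lower. At least 10 Jchain UMIs gave 13 lower genes. With immunoglobulin out of the total 75 genes were higher and 49 lower and the median was 0.022, and with Actb out it was 0.35. Without the conditions on Siglech and Ms4a1 the median of all genes was 0.12 and of the cell cycle list 0.20. Without the condition on partner genes, also added later, Ins1 was at -0.80. The cause of these shifts was not tested. The 12 HAMS cells with 9387 UMIs limit all comparisons between the diets.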
